A study of Mus musculus with 2 samples.

Results

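The 8 genes described here, *Olfm4*, *Smoc2*, *Slc12a2*, *Rgmb*, *Aqp4*, *Clca3b*, *Cdca7* and *Pcdh8*, mark the stem cells at the base of the mouse intestinal crypt. They were taken as a list given by name, which was chosen with earlier results of these data known. All 8 were listed in both single-cell count tables, which held 16665 genes between them and 15182 in common. They were read in 1 library of 2563 cells labelled WT and 1 library of 1811 cells labelled KO, made from enteroids, which are crypts grown in Matrigel into budding epithelial structures. Enteroids came from ileal crypts of 4-month-old C57Bl6/129sv mice, and live sorted cells were captured after a 3-day treatment. The library labelled KO carried floxed *Taf4* with VilCreERT2, a tamoxifen-dependent Cre driven by the Villin promoter and so limited to epithelium, and was given 1 µM 4-hydroxytamoxifen (4-OHT) from day 5 to day 8 of culture. The control is labelled as WT with ethanol alone, while the methods of the study describe *Taf4* lox/lox enteroids with 4-OHT, so that its exact treatment is uncertain. *Taf4* encodes a subunit of TFIID, the complex that assembles at core promoters.

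Crypt base columnar cells sit between Paneth cells, divide regularly and renew the epithelium. Wnt signalling holds them in the stem state and drives genes such as *Lgr5*, a receptor for R-spondins, while other genes found in the same cells follow other inputs; *Olfm4*, for example, is known to need Notch signalling. The 8 genes have varied roles. *Olfm4* encodes a secreted glycoprotein, *Smoc2* a secreted calcium-binding matrix protein, *Rgmb* a membrane-anchored co-receptor for bone morphogenetic proteins, and *Pcdh8* an adhesion molecule of the protocadherin family. *Slc12a2* encodes the sodium-potassium-chloride cotransporter NKCC1, *Aqp4* a water channel, and *Clca3b* a member of the calcium-activated chloride channel regulator family, which holds several related genes. *Cdca7* encodes a nuclear protein that acts with the chromatin remodeller HELLS and is made mostly in dividing cells.

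*Taf4* itself had 278 UMIs (unique molecular identifiers, each a counted RNA molecule) in the library labelled WT, 0.0696 per 10000, and 236 in the library labelled KO, 0.0944 per 10000. It was therefore not lower in the library labelled KO, and every direction below is drawn from labels that this count does not check. Where the counted tags lie relative to the deleted exons is not given in the sources used here. The libraries held 39947009 and 24990128 UMIs, with medians of 16749 and 2254 per cell, and 17.3% and 49.1% of cells had under 2000 UMIs. *Gm42418*, a transcript that overlaps ribosomal RNA and is often high in cells of low quality, was at 24.7 and 41.8 per 10000. Of 10 markers of immune, endothelial and stromal cells, 6 and 4 had no UMI, *Ptprc* among them in both, and their sum was 0.00951 and 0.0324 per 10000. The libraries shared 2 cell barcodes. With 1 library in each group no test was possible, and all intervals are exact 95% intervals that cover counting error only.

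In the GRCm38.p6 annotation of RefSeq the 8 genes lay on 5 chromosomes, and 3 pairs shared one. *Pcdh8* (chromosome 14, 79766772 to 79771312) and *Olfm4* (chromosome 14, 80000302 to 80023141) were 229 kb apart with no protein-coding gene between them. *Smoc2* (chromosome 17, 14279490 to 14404790) and *Rgmb* (chromosome 17, 15804661 to 15831246) were 1400 kb apart, with 17 protein-coding genes between them. *Aqp4* and *Slc12a2* shared the third, and *Clca3b* (chromosome 3, 144822623 to 144849302) and *Cdca7* (chromosome 2, 72476187 to 72486892) stood alone.

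The 250 bases before the start site were read from the RefSeq promoter table for the genes whose levels the results turn on and that the table holds, since TFIID assembles at this stretch. Capitals mark TATAAA, the TATA box, in *Rgmb* and *Pcdh8*, and TGGGAA, the core of the RBPJ site of the Notch pathway, in *Olfm4*; *Clca3b* had a match to neither.
Olfm4, chr14:80000052-80000301, plus strand: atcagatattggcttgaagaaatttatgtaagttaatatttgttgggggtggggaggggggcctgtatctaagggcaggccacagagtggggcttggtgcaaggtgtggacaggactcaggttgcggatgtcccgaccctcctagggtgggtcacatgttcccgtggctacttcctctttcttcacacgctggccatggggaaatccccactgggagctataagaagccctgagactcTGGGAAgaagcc
Pcdh8, chr14:79771313-79771562, minus strand: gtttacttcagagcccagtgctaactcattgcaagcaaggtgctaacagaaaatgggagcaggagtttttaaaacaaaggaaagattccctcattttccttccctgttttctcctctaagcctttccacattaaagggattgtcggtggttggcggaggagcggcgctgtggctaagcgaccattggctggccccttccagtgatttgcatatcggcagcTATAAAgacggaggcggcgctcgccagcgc
Rgmb, chr17:15831247-15831496, minus strand: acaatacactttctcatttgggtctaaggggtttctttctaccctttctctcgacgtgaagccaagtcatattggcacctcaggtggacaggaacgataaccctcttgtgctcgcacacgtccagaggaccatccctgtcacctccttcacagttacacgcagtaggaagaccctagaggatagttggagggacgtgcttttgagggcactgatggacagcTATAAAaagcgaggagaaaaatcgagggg
Clca3b, chr3:144849303-144849552, minus strand: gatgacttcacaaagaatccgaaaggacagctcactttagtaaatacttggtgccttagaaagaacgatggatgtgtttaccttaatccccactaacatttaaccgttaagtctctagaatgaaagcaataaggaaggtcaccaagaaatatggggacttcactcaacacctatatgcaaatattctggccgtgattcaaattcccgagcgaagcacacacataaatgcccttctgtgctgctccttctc
The TATA box began 29 bases before the start of *Rgmb* and 30 bases before that of *Pcdh8*. TATAAA was found on either strand in 12.4% of all 32851 windows of this length, and on the gene's own strand with its first base 25 to 35 bases before the start in 1.75%. The TGGGAA of *Olfm4* began 12 bases before the start, and 21.6% of windows held it on either strand. The window of *Cdca7*, which is not shown, also had a match, 227 bases before the start. CTTTGA, a form of the core of the TCF/LEF site of the Wnt pathway, is in 13.8% of windows, and other forms were not searched for. CAGCTG, an E-box that is its own reverse complement, is in 13.0%, and GGCGGGAA, an E2F site, in 1.86%. None of these 3 was in the 4 windows shown, which says only that these letters are absent there.

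Over all cells the 8 genes together made up 14.7 UMIs per 10000 in the library labelled WT and 8.57 in the library labelled KO, a log2 ratio of -0.78 (-0.80 to -0.76). Each of the 8 was lower in the library labelled KO, but by very different amounts, from a remaining level of 19.5% of the control for *Aqp4* to 92.4% for *Smoc2*. Of the 8, 4 were at least 2-fold lower (*Rgmb*, *Aqp4*, *Clca3b* and *Pcdh8*), against 3.48% of the 10002 genes that reached 200 UMIs in the libraries combined. *Rgmb* lost this call as the mean over cells (-0.61) and when cells were thinned to 500 (-0.71) or 5000 UMIs (-0.96), and *Clca3b* as the mean over cells (-0.96). *Olfm4* gained it with mitochondrial, ribosomal, *Gm42418* and *AY036118* counts out of the total (-1.15). It also gained it under the scaling factors TMM and median of ratios (-1.16 for each). A lower minimum of 50 UMIs put the same 4 beside 4.38% of 11941 genes. None of the 8 was at least 2-fold higher, as 5.52% of the 10002 genes were. The median log2 ratio of the 8 was -1.03, against 0.16 for all 10002 genes, and all 8 lay under that all-gene median. All 8 also had a counting interval wholly under 0, as did 22.3% of all genes. As the list was chosen with earlier results of these data known, these comparisons with all genes, here and below, are descriptions.

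Of the secreted and surface proteins, *Olfm4* had 21386 UMIs in the library labelled WT, 5.35 per 10000 (5.28 to 5.43), and 6855 in the library labelled KO, 2.74 per 10000 (2.68 to 2.81), a log2 ratio of -0.96, or 51.2% of the control level. *Smoc2* had 5743 UMIs, 1.44 per 10000, and 3321 UMIs, 1.33 per 10000, a log2 ratio of -0.11 (-0.18 to -0.05). *Smoc2* thus stood near the control level, and its sign depended on the weighting of cells: the mean over cells gave 0.25 and thinning each cell to 500 UMIs gave 0.29. *Rgmb* had 3256 UMIs, 0.815 per 10000 (0.787 to 0.844), and 958 UMIs, 0.383 per 10000 (0.359 to 0.408), a log2 ratio of -1.09 (-1.19 to -0.98). *Pcdh8*, the least counted of the 8, had 503 UMIs, 0.126 per 10000 (0.115 to 0.137), and 73 UMIs, 0.0292 per 10000 (0.0229 to 0.0367), a log2 ratio of -2.11 (-2.48 to -1.75). Among all 10002 ratios *Pcdh8* was at rank 37 from the lowest.

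Of the transport proteins, *Aqp4* was the lowest relative to the control, with 3238 UMIs in the library labelled WT, 0.811 per 10000 (0.783 to 0.839), and 394 in the library labelled KO, 0.158 per 10000 (0.142 to 0.174). Its log2 ratio was -2.36 (-2.52 to -2.21), at rank 30 of 10002 from the lowest. *Clca3b* had 4609 UMIs, 1.15 per 10000 (1.12 to 1.19), and 819 UMIs, 0.328 per 10000 (0.306 to 0.351), a log2 ratio of -1.82 (-1.92 to -1.71). *Slc12a2*, by contrast, kept 73.4% of the control level, with 17536 UMIs, 4.39 per 10000 (4.33 to 4.46), and 8050 UMIs, 3.22 per 10000 (3.15 to 3.29), a log2 ratio of -0.45 (-0.48 to -0.41). *Cdca7*, the nuclear protein of dividing cells, had 2455 UMIs, 0.615 per 10000 (0.590 to 0.639), and 935 UMIs, 0.374 per 10000 (0.351 to 0.399), a log2 ratio of -0.72 (-0.83 to -0.61).

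The share of stem cells could differ between the libraries, so the same genes were read by cell class. Cells of each library were clustered with the 8 genes left out, and clusters were named from fixed marker lists that do not hold them. Stem-like clusters, named from 12 Wnt-driven genes such as *Lgr5*, *Ascl2* and *Axin2*, held 1174 cells (45.8%) of the library labelled WT and 485 cells (26.8%) of the library labelled KO. These shares depended on the naming rule. With 3 markers needed the order turned, to 23.9% and 26.8%. With markers from 2 times the reference level the shares were 14.9% and 7.90%. Keeping only stem-like clusters of median 2000 UMIs or more gave 45.8% and 11.7%. The summed Wnt-driven markers were at 5.04 and 5.12 per 10000 in them, and the summed Paneth/goblet-like markers at 10.7 and 28.0. Different kinds of cluster made up the class. The control class held clusters of 299 cells (led by *Olfm4*, *Aqp4* and *Pcdh8*), 262 cells (led by mitotic genes), 241 and 232 cells (led by S phase genes) and 140 cells (led by *Sprr1a* and *Stk39*). That of the library labelled KO held 177 cells led by *Ccnd1* and *Olfm4*, 165 led by mitotic genes with a median of 1822 UMIs, 108 led by *Gm26917* and *Reg1* with a median of 978 UMIs, and 35 led by S phase genes. A control cluster of 432 cells also led by *Gm26917*, with a median of 1202.5 UMIs, was left unnamed for too few markers. Clusters led by this gene thus entered the class in the library labelled KO only. Of these stem-like cells 0.767% and 36.9% had under 2000 UMIs, and *Gm42418* was at 20.0 and 34.2 per 10000; the part of depth and RNA quality in the differences was not tested.

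**Figure D1:**
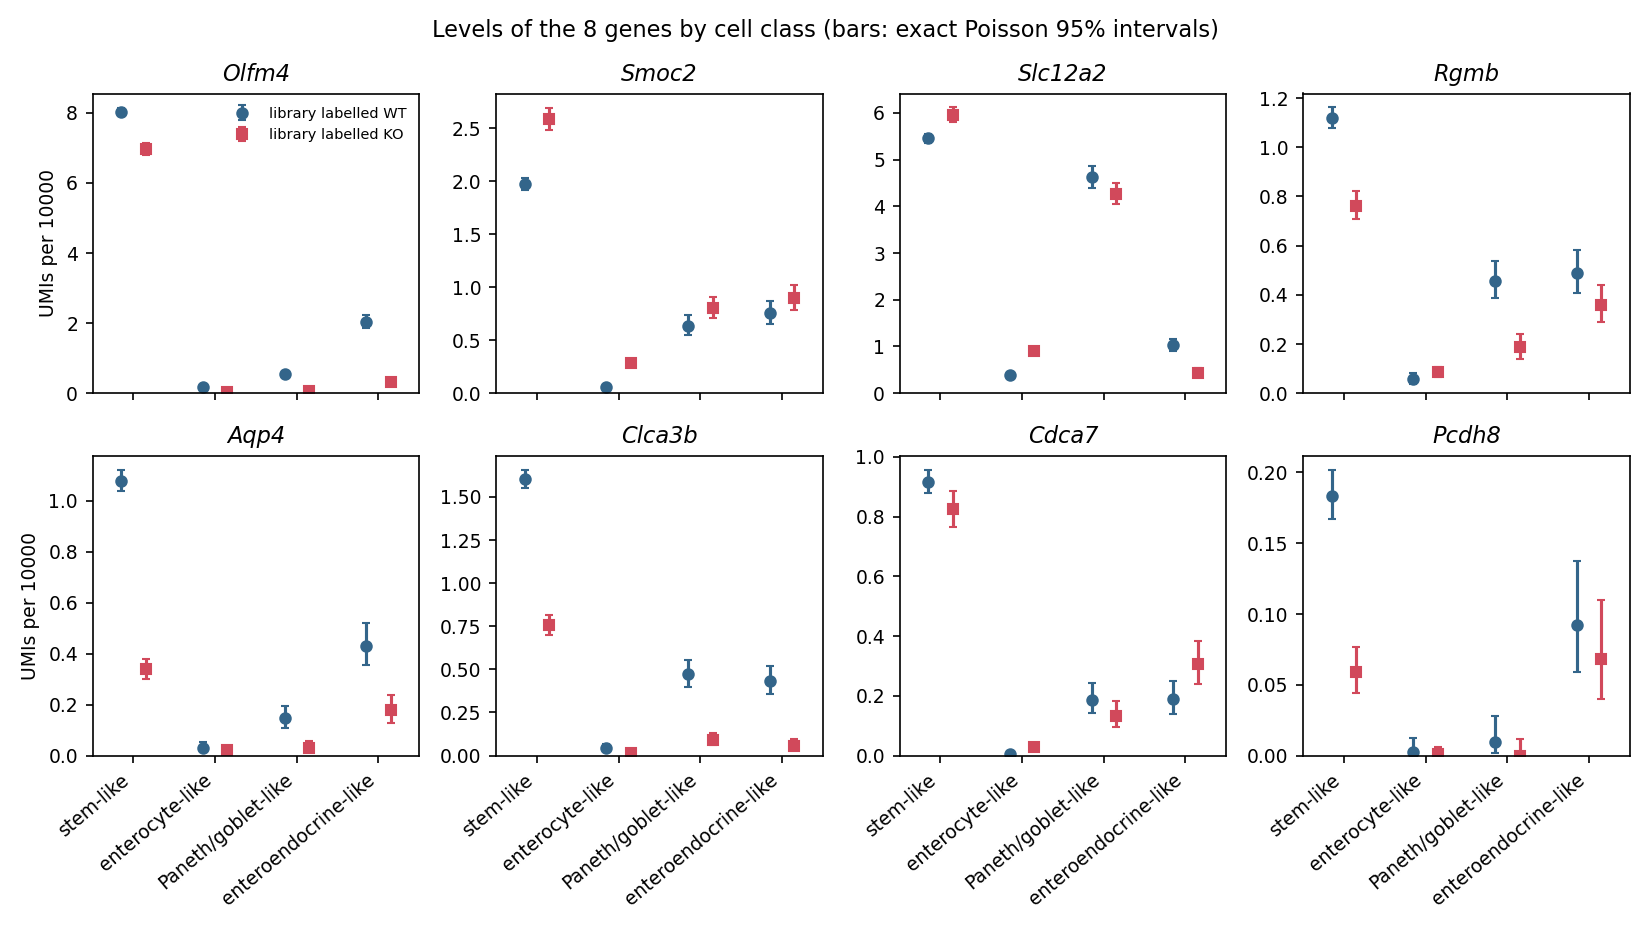
Level of each gene, in UMIs per 10000 on linear axes from 0, in 4 cell classes of the library labelled WT (circles) and the library labelled KO (squares), with exact Poisson 95% intervals. Among these 4 classes all 8 genes are highest in stem-like cells of the library labelled WT, as are 7 in the library labelled KO. There *Pcdh8* is at 0.0685 in enteroendocrine-like and 0.0589 in stem-like cells. *Slc12a2* is next highest in Paneth/goblet-like cells (4.62 and 4.27), against 5.45 and 5.96 in stem-like cells. In stem-like cells *Aqp4* stands at 1.08 and 0.339. The tuft-like class is not shown. In the library labelled WT *Clca3b* was higher there, at 1.97 (1.76 to 2.20), than in stem-like cells, at 1.60 (1.55 to 1.66).

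All 8 genes were higher in stem-like cells than in the other cells of the same library. The fold over other cells ran from 1.96 (*Slc12a2*) to 6.10 (*Olfm4*) in the library labelled WT and from 3.55 (*Slc12a2*) to 19.4 (*Olfm4*) in the library labelled KO. A fold of at least 2 was met by 7 and 8 of the 8 genes, against 7.25% and 9.5% of genes with at least 200 UMIs, and 10 alternatives in clustering and naming kept the sign for all 8 in both libraries. As these cells were chosen by cluster, the folds are a description. Stem-like cells held 90.2% of all *Olfm4* UMIs in the library labelled WT and 91.6% in the library labelled KO. They held 74.7% and 66.6% of those of *Slc12a2*, the least confined of the 8 in either library.

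Outside stem-like cells the genes parted ways. *Slc12a2* was at 4.62 per 10000 (4.39 to 4.87) in Paneth/goblet-like cells of the library labelled WT and at 4.27 (4.04 to 4.50) in those of the library labelled KO. These were below its stem-like levels of 5.45 (5.36 to 5.55) and 5.96 (5.80 to 6.12). In enterocyte-like cells, which should lack crypt base genes, *Slc12a2* was at 0.385 and 0.905 per 10000. *Smoc2* was at 0.0541 (24 UMIs) and 0.286 (263 UMIs) there. The class was not drawn from like clusters in the libraries. A cluster of 150 enterocyte-like cells of that library, led by *Tmem237* and *S100g* and not by mature enterocyte genes, held *Slc12a2* at 1.66 and *Smoc2* at 0.399, against 0.106 and 0.166 in the cluster of 165 cells led by *Cyp2c29* and *Fabp1*. A control cluster of 187 cells that also had *Tmem237* among its leading genes was unnamed and so outside the class, with *Slc12a2* at 4.43 and *Smoc2* at 0.535, both above the values of the *Tmem237*-led cluster of the library labelled KO. The control cluster of 215 cells led by *Apoc3* and *Fabp1* had *Slc12a2* at 0.387 and *Smoc2* at 0.0546. *Olfm4* in enteroendocrine-like cells was at 2.04 per 10000 (1.87 to 2.22) in the library labelled WT and 0.314 (0.249 to 0.392) in the library labelled KO. Of the 530 UMIs behind the control value, 210 were in a cluster of 14 cells led by *Lyz1*, at 10.6 per 10000. The largest clusters of the class, of 207 and 128 cells, were at 1.26 and 0.289. *Pcdh8* in enteroendocrine-like cells of the library labelled KO was at 0.0685 (0.0399 to 0.110), on 17 UMIs, which overlaps its stem-like level of 0.0589 (0.0441 to 0.0770). It had 3 UMIs in Paneth/goblet-like cells of the library labelled WT and none in those of the library labelled KO.

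**Figure D2:**
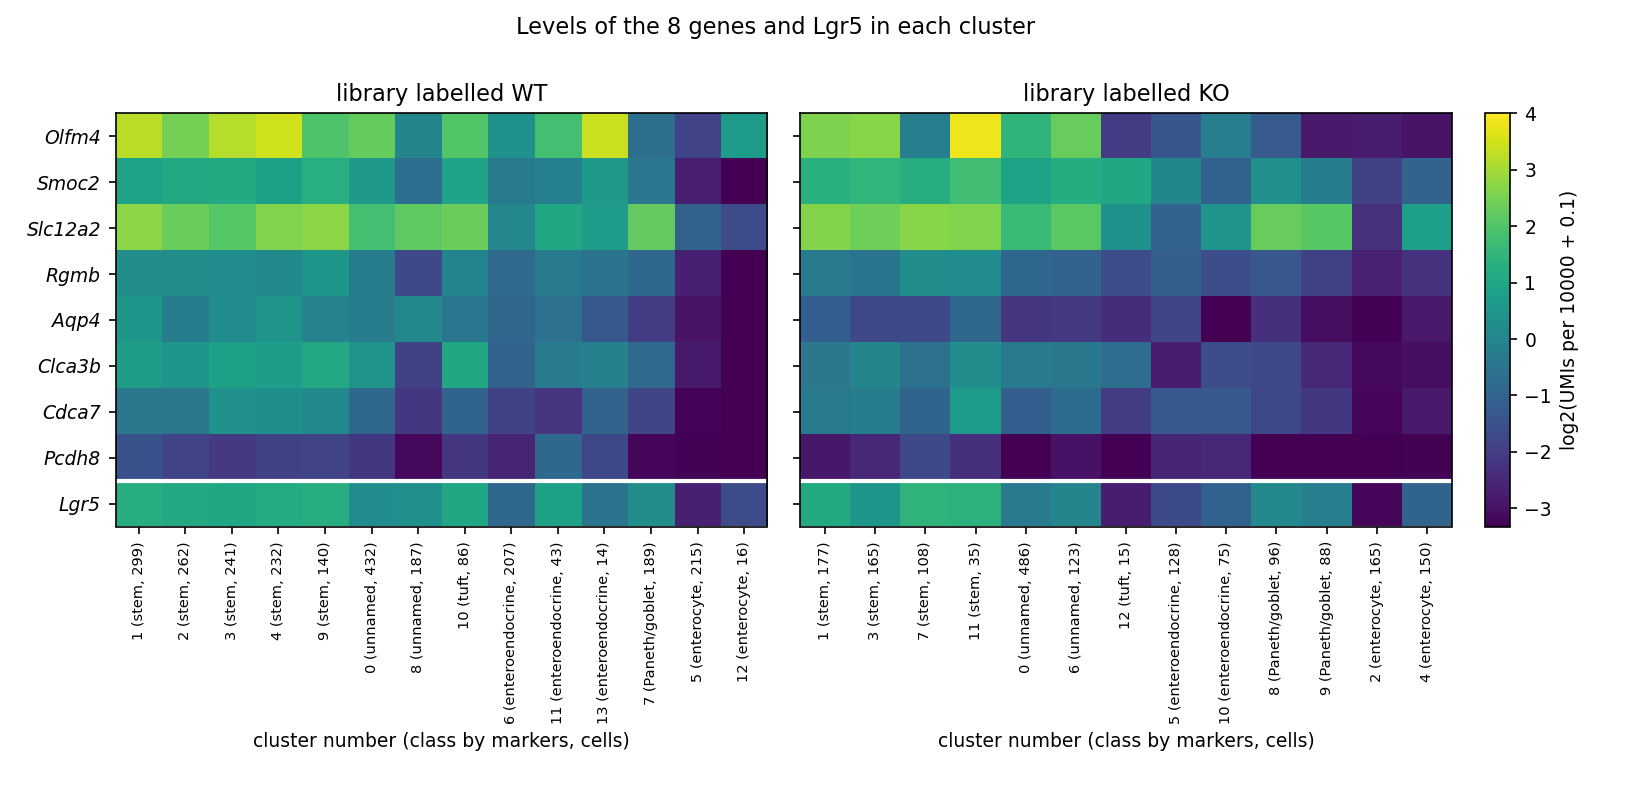
Level of the 8 genes and *Lgr5* in each cluster, as log2(UMIs per 10000 + 0.1), with clusters ordered by class and the class and number of cells below each column. *Olfm4* is brightest in the S phase cluster of 35 cells of the library labelled KO (14.1 per 10000) and in the S phase cluster of 232 cells of the library labelled WT (11.1), and *Aqp4* is at most 0.450 in the stem-like clusters of the library labelled KO.

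A class of cells that was set the same way in both libraries was also read: cells with at least 2000 UMIs and at least 2 *Lgr5* UMIs per 10000, called Lgr5-high here. There were 706 such cells (27.5%) in the library labelled WT and 177 (9.77%) in the library labelled KO, with medians of 19814 and 29413 UMIs. This is a range and not a type, since 431 and 104 cells lay between 1.5 and 2.5 *Lgr5* UMIs per 10000. The cut was not equally strict at all depths, since 1 *Lgr5* UMI was enough in cells of 2000 to 5000 UMIs. Under 5000 UMIs were 19 of the 706 and 36 of the 177 cells. Of the Lgr5-high cells 80.7% and 75.1% were in stem-like clusters. Per cell, the summed enterocyte-like markers had a median of 4.60 and 5.04 per 10000, the Paneth/goblet-like markers 3.96 and 6.37, and the enteroendocrine-like and tuft-like markers 0. The 90th percentile of the Paneth/goblet-like markers was 46.6 and 92.3, so some Lgr5-high cells held many of these, more so in the library labelled KO.

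Within stem-like and Lgr5-high cells the 8 genes did not share a direction. The median log2 ratio of the 8 was -0.38 in stem-like and -0.23 in Lgr5-high cells, against 0.20 and 0.19 for all genes with at least 200 UMIs there. At least 2-fold lower in the library labelled KO were 3 of the 8 in stem-like cells (*Aqp4*, *Clca3b* and *Pcdh8*), against 2.38% of 8318 genes, and 2 of the 8 in Lgr5-high cells (*Aqp4* and *Pcdh8*), against 2.37% of 6840 genes. *Aqp4* alone stayed at least 2-fold lower in all 21 alternatives for stem-like cells. *Clca3b* was at -0.69 as the mean over cells and at -0.92 when thinned to 5000 UMIs, and *Pcdh8* at -0.72 and at -0.82 (-1.77 to 0.02). In Lgr5-high cells thinned to 5000 UMIs the mean *Pcdh8* count per cell was 0.0975 and 0.0922, so its difference was not seen there at equal depth. None was at least 2-fold higher in either class, where 3.67% and 2.5% of genes were. Counting intervals lay wholly under 0 for 6 of the 8 in stem-like cells, against 16.3% of genes, and wholly over 0 for 2, against 48.3%. In Lgr5-high cells they lay under 0 for 4 of the 8, against 14.0%, and over 0 for 3, against 42.3%. The 8 genes summed were at 20.4 and 18.3 per 10000 in stem-like cells and at 21.4 and 22.9 in Lgr5-high cells, so that their total had opposite signs in these classes, with log2 ratios of -0.16 (-0.18 to -0.13) and 0.10 (0.07 to 0.13).

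*Aqp4* and *Pcdh8* had the lowest ratios of the 8 in both classes. *Aqp4* was at 1.08 per 10000 (1.04 to 1.12) in stem-like cells of the library labelled WT and at 0.339 (0.302 to 0.379) in those of the library labelled KO, a log2 ratio of -1.67 (-1.84 to -1.50). In Lgr5-high cells it was at 1.05 and 0.381, a log2 ratio of -1.46 (-1.70 to -1.23). Over stem-like clusters *Aqp4* lay between 0.762 and 1.37 in the 5 of the library labelled WT. It lay between 0.200 and 0.450 in the 4 of the library labelled KO. Clusters of 1 library are not replicates, and how many of all genes part in this way was not counted. The *Aqp4* ratio was negative in all 21 alternatives for stem-like cells, from -2.26 to -1.28.

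*Pcdh8* was at 0.184 per 10000 (441 UMIs) and 0.0589 (53 UMIs) in stem-like cells, a log2 ratio of -1.64 (-2.08 to -1.23), and at 0.213 (298 UMIs) and 0.0767 (34 UMIs) in Lgr5-high cells, a log2 ratio of -1.47 (-2.03 to -0.96). Once Lgr5-high cells were thinned to 5000 UMIs, the mean *Pcdh8* count per cell was 0.0975 and 0.0922. The difference was thus not seen in these thinned cells, which were weighted equally. In the library labelled KO only 9 of 141 thinned cells had a *Pcdh8* UMI, so a smaller difference cannot be told from none. Over the stem-like clusters of the library labelled WT it ran from 0.133 to 0.261 (0.219 to 0.309). The highest was in the cluster led by *Olfm4*, *Aqp4* and *Pcdh8*. Over those of the library labelled KO it ran from 0.0397 (0.0255 to 0.0591), in the *Ccnd1*-led cluster, to 0.207. Clusters were not matched between the libraries. The shallow cluster of 108 cells was at 0.207 and rested on 4 UMIs. *Clca3b* was at 1.60 (1.55 to 1.66) and 0.755 (0.699 to 0.814) in stem-like cells, a log2 ratio of -1.09 (-1.21 to -0.97), and at 1.78 and 1.01 in Lgr5-high cells, a log2 ratio of -0.82 (-0.97 to -0.67). Over stem-like clusters it lay from 1.36 to 2.04 in the library labelled WT and from 0.569 to 1.11 in the library labelled KO. *Rgmb* was at 1.12 and 0.762, a log2 ratio of -0.55 (-0.68 to -0.43), and at 1.20 and 0.929 in Lgr5-high cells, a log2 ratio of -0.36 (-0.52 to -0.21). The *Rgmb* ranges over these clusters overlapped, with 1.02 upwards in the library labelled WT and 0.614 to 1.14 in the library labelled KO.

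*Smoc2* stood on the other side. It was at 1.97 per 10000 (1.92 to 2.03) in stem-like cells of the library labelled WT and at 2.59 (2.48 to 2.70) in those of the library labelled KO, a log2 ratio of 0.39 (0.32 to 0.46), and at 2.05 and 3.14 in Lgr5-high cells, a log2 ratio of 0.62 (0.53 to 0.71). Both ratios were above the all-gene medians of 0.20 and 0.19. Under the scaling factors TMM and median of ratios, which shift the libraries by about that median, the stem-like ratio was 0.20 and 0.16. *Slc12a2* was at 5.45 and 5.96 in stem-like cells, a log2 ratio of 0.13 (0.08 to 0.17) that lay under the all-gene median and turned to -0.07 and -0.11 under these scalings, and at 6.15 and 7.36 in Lgr5-high cells, a log2 ratio of 0.26 (0.20 to 0.32).

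*Olfm4* depended on how the stem cells were drawn. It was at 8.03 per 10000 (7.92 to 8.15) and 6.98 (6.81 to 7.15) in stem-like cells, a log2 ratio of -0.20 (-0.24 to -0.16), and at 8.02 (7.87 to 8.17) and 9.13 (8.85 to 9.41) in Lgr5-high cells, a log2 ratio of 0.19 (0.13 to 0.24), the same as the all-gene median there. Its sign was positive in 6 of the 21 alternatives for stem-like cells. Levels ran from 3.89 to 11.1 over the stem-like clusters of the library labelled WT and from 0.776 to 14.1 over those of the library labelled KO, and these ranges overlapped widely. The shallow cluster of 108 cells had *Lgr5* at 2.64 (1.96 to 3.47) with *Olfm4* at only 0.776 (15 UMIs), while the S phase cluster of 35 cells had *Lgr5* at 2.49 and *Olfm4* at 14.1 (13.4 to 14.7).

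*Cdca7* was highest in the S phase clusters of both libraries. Control cells had it at 1.21 per 10000 (1.12 to 1.31) and 1.16 (1.07 to 1.26) in the S phase clusters, and at 0.642 (0.575 to 0.715) in the cluster led by *Olfm4*, *Aqp4* and *Pcdh8*. The library labelled KO had it at 1.53 (1.32 to 1.76) in the S phase cluster and at 0.707 (0.641 to 0.777) in the *Ccnd1*-led cluster. Over stem-like cells it was at 0.917 and 0.825, a log2 ratio of -0.15 (-0.27 to -0.03), which was positive in 4 of 21 alternatives, and at 0.922 and 0.864 in Lgr5-high cells, a log2 ratio of -0.09 (-0.26 to 0.07) that included 0.

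**Figure D3:**
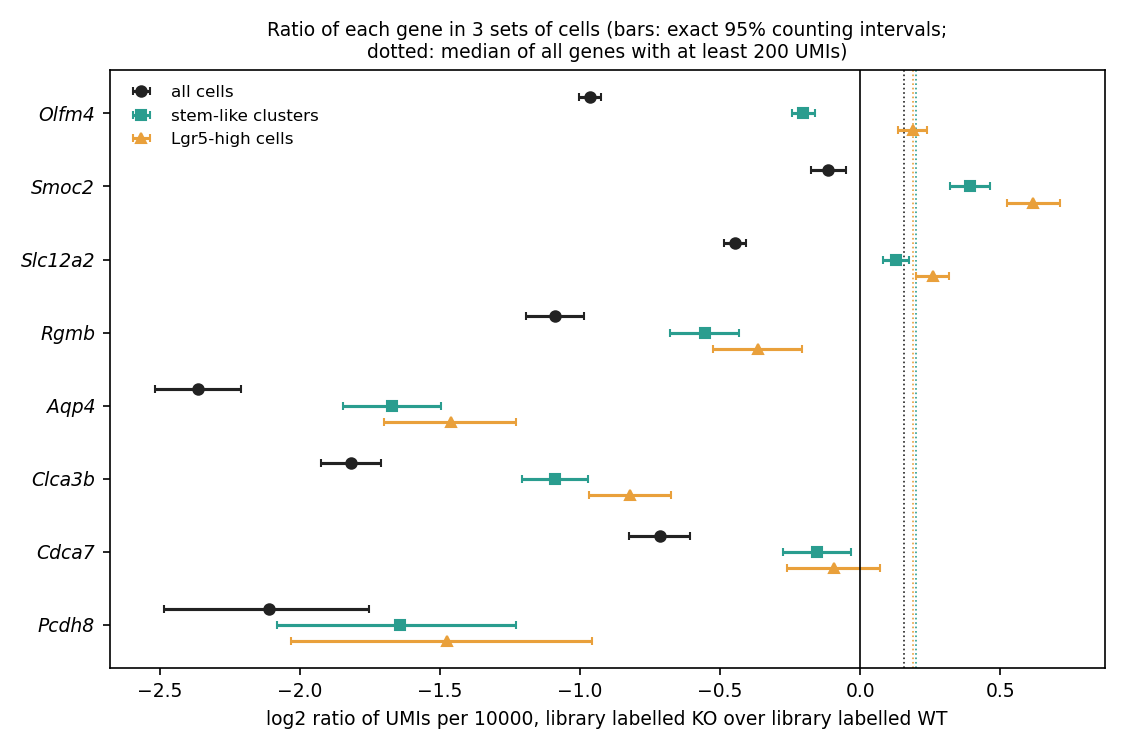
Log2 ratio of each gene, library labelled KO over library labelled WT, over all cells (circles), stem-like clusters (squares) and Lgr5-high cells (triangles), with exact 95% counting intervals. All 8 genes lie left of 0 over all cells, while in Lgr5-high cells *Smoc2* (0.62), *Slc12a2* (0.26) and *Olfm4* (0.19) lie right of 0 and *Aqp4* (-1.46) and *Pcdh8* (-1.47) stay farthest left. Depth was not set equal for these ratios.

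Dividing cells were fewer in the library labelled KO. *Mki67*, a marker of cycling cells, had at least 1 UMI in 341 of the 706 Lgr5-high cells of the library labelled WT and in 59 of the 177 of the library labelled KO, so the 8 genes were also read on either side of this divide. Without an *Mki67* UMI, *Aqp4* was at 1.03 and 0.368, *Clca3b* at 1.81 and 0.871, *Smoc2* at 2.01 and 2.95, and *Olfm4* at 7.98 and 8.33. With an *Mki67* UMI, *Aqp4* was at 1.07 and 0.408, *Clca3b* at 1.75 and 1.28, *Smoc2* at 2.08 and 3.51, and *Olfm4* at 8.05 and 10.7. *Aqp4* and *Clca3b* were thus lower and *Smoc2* higher in the library labelled KO among cells with and without the marker. *Pcdh8* rested on 6 UMIs in the *Mki67*-positive cells of the library labelled KO.

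Depth was set equal before cells with a UMI were counted. Each cell was thinned to 5000 UMIs, which left 687 of the 706 and 141 of the 177 Lgr5-high cells. *Aqp4* had a UMI in 36.8% (33.2 to 40.6) of them in the library labelled WT and in 13.5% (8.31 to 20.2) in the library labelled KO, against 72.1% and 39.0% without thinning. In enterocyte-like cells the thinned share was 0.505% and 0.431%, with median depths of 20854 and 34790 UMIs. *Smoc2* had a UMI in 55.3% (51.5 to 59.1) and 70.9% (62.7 to 78.3) of Lgr5-high cells, against 85.3% and 88.7% without thinning and 3.03% and 14.7% of thinned enterocyte-like cells. *Slc12a2* (91.0% and 92.9%), *Cdca7* (31.3% and 31.9%), *Clca3b* (44.1% and 39.0%), *Rgmb* (42.1% and 35.5%) and *Pcdh8* (8.30% and 6.38%) had overlapping intervals in the libraries.

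*Olfm4* was spread unevenly. After thinning it had a UMI in 67.1% (63.5 to 70.6) of Lgr5-high cells of the library labelled WT and in 52.5% (43.9 to 61.0) of those of the library labelled KO, against 80.2% and 60.5% without thinning, and no order is read from these shares since the level went the other way. The median thinned count was 2 and 1, the upper quartile 6 and 7 and the 90th percentile 11 and 15. Of the library labelled KO, 14 cells of 141 held 49.3% of these *Olfm4* UMIs, and in the library labelled WT 69 cells of 687 held 39.2%.

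**Figure D4:**
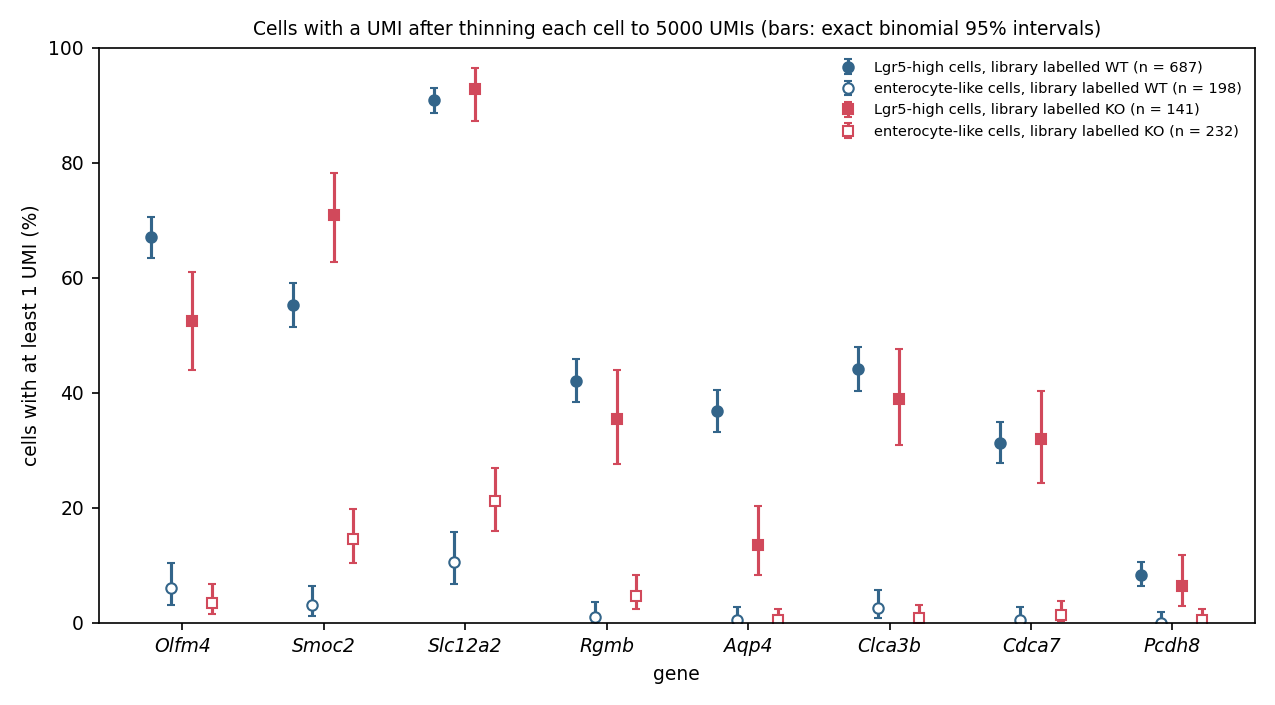
Percent of cells with at least 1 UMI of each gene after each cell was thinned to 5000 UMIs, in Lgr5-high cells (filled) and enterocyte-like cells (open) of the library labelled WT (circles) and the library labelled KO (squares), with exact binomial 95% intervals. *Aqp4* stands at 36.8% and 13.5% and *Smoc2* stands at 55.3% and 70.9%, while most enterocyte-like values lie near 0.

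The Lgr5-high cells with no *Olfm4* UMI at this depth, 226 of 687 and 67 of 141, still held the other genes. Among control cells their *Slc12a2* was at 6.16 per 10000 (5.71 to 6.63) against 6.47 (6.15 to 6.81) in cells with *Olfm4*, while *Cdca7* was at 0.442 (0.328 to 0.583) against 1.11 (0.983 to 1.26) and *Pcdh8* at 0.0354 (4 UMIs) against 0.273 (63 UMIs). In the library labelled KO *Clca3b* was at 0.388 (0.207 to 0.664) without and 2.03 (1.59 to 2.54) with *Olfm4*, and *Smoc2* at 2.09 (1.63 to 2.64) and 3.89 (3.28 to 4.58). *Aqp4* was at 0.388 (0.207 to 0.664) and 0.351 (0.187 to 0.601) there, on 13 UMIs in each, too few to show a difference of the size in the library labelled WT, where it was at 0.796 without and 1.10 with *Olfm4*. *Cdkn1a*, a cell cycle inhibitor, was higher in cells without *Olfm4*, at 1.22 against 0.564 in the library labelled WT and at 5.76 against 2.35 in the library labelled KO. In the cells with *Olfm4*, *Clca3b* was at 2.03 in both libraries, and *Pcdh8* at 0.273 and 0.297 (11 UMIs).

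The 8 genes varied together over clusters, though not all to the same degree. Over the 14 clusters of the library labelled WT, Pearson's r of log2(UMIs per 10000 + 0.1) was highest between *Rgmb* and *Clca3b* and between *Smoc2* and *Rgmb* (0.98 for each), and lowest between *Slc12a2* and *Pcdh8* (0.46). Over the 13 clusters of the library labelled KO it ran from 0.93 between *Olfm4* and *Cdca7* to 0.31 between *Slc12a2* and *Pcdh8*. These values are descriptions, since clusters of 1 library share their depth and ambient RNA. Outside the list, the gene most like *Olfm4* over the clusters of the library labelled WT was *Rbm3* (r = 0.95), the gene most like *Rgmb* was *Srsf2* (r = 0.96), followed by *Axin2* (r = 0.95), and *Ephb4* was most like both *Smoc2* (r = 0.96) and *Clca3b* (r = 0.96). *Pus7* was most like *Slc12a2* (r = 0.97), *Paics* most like *Cdca7* (r = 0.95) and *Polr1d* most like *Pcdh8* (r = 0.90), and for *Polr1d* r was -0.01 in the library labelled KO.

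Other crypt genes give the frame for these values. Over all cells, 3.48% of the 10002 genes were at least 2-fold lower in the library labelled KO. Of the 11 Wnt-driven stem genes with at least 200 UMIs 1 was, *Ascl2* at -1.85. The median log2 ratio of these 11 was -0.07, against -1.03 for the 8 genes. *Lgr5* was at -0.72 over all cells. It was at -0.05 (-0.13 to 0.03) in stem-like cells, which it helped to name, and at 0.08 in the Lgr5-high cells, which it chose. Of 13 other crypt base columnar genes measured at this depth, 2 were at least 2-fold lower, with a median of 0.07. *Nrn1*, a neuritin, was the lowest at -3.77, and *Cyp2e1*, a cytochrome P450, the highest, with 0 UMIs in the library labelled WT and 246 in the library labelled KO. None of 5 reserve or +4 position genes was at least 2-fold lower, with a median of 0.04. S phase and cycling genes were the closest in size to the 8, with 9 of 12 at least 2-fold lower and a median of -1.14, among them *Mcm5* at -1.17 and *Mki67* at -1.67. In stem-like cells the cycling median was -0.55 and 3 of 12 passed the same limit, against 2.38% of 8318 genes. The Wnt-driven, other crypt base columnar and reserve or +4 position medians there were 0.22, 0.30 and 0.27, against 0.20 for all genes. The Wnt-driven genes also named the stem-like clusters, so their median there is not independent of that choice.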

How the data were processed

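The 2 libraries of enteroid cells, 1 labelled WT and 1 labelled KO, were analysed as groups of 1. The authors deposited raw counts of UMIs per gene and cell, with cells of 200 to 6000 genes and under 15% mitochondrial counts kept. The submitters' processing notes name bcl2fastq 2.17.1.14, Cell Ranger 3.1 and Seurat 3.1.4 with the mm10 build. The 8 genes and all gene lists were chosen with earlier results of these data known.

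Here UMIs were summed over cells and divided by the total, per 10000. Levels have exact Poisson, shares exact Clopper-Pearson and ratios exact conditional binomial 95% intervals. Each library was clustered with Seurat 5.3.0 in R 4.3.3 (2000 variable genes without the 8 genes, UMI count and mitochondrial percent regressed out, 20 principal components, resolution 0.9). A cluster took the class with the most markers at 1.5 times the mean level of the libraries or above, with at least 2 such markers and at least 3 detected at 10 UMIs. Clusters whose 10 leading genes favoured a different class, or whose median UMI count was below the library median divided by 3 with no own marker there, were left unnamed. By this limit the clusters of 165 and 108 cells of the library labelled KO (medians of 1822 and 978 UMIs) stayed stem-like, although no stem-like marker was among their 10 leading genes. This rule was set after marker values were seen. Unnamed clusters held 619 and 609 cells. A cluster of 86 cells of the library labelled WT met the tuft-like rule but was led by *Rgs13*, *Ltc4s* and *Dll1*, with tuft markers at 0.921 per 10000 against 21.4 in that of the library labelled KO, so this class was not compared. Scrublet in scanpy 1.11.5 called 10 and 0 doublets, so doublets are largely untreated. Thinning drew each cell to a fixed number of UMIs without replacement. Interval and thinning code was tested on simulated counts. Genes named are the 8, context genes from fixed lists (the defining gene and the extremes) and, for each of the 8, the genes of highest r over the clusters of the library labelled WT. The result of that rule for *Aqp4* is not reported here. Promoter windows from RefSeq (GRCm38.p6) were matched by symbol for 5 of the 8. Alternatives covered totals, scaling, cell weight, depth, cell filters, doublets, clustering and naming.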

Additional observations from a re-analysis of the deposited data

Results flagged for a closer look

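For *Slc12a2* and *Cdca7* the log2 ratio, library labelled KO over library labelled WT, had one sign in stem-like cells and the other in enterocyte-like, Paneth/goblet-like or enteroendocrine-like cells, with counting intervals that left out 0 in both and 1 library in each group. *Olfm4* also had opposite signs between stem-like (-0.20) and Lgr5-high cells (0.19), which overlap, and unnamed clusters (1.35). The differences between classes were not tested. *Slc12a2* was at 0.13 in stem-like cells, at -0.12 in Paneth/goblet-like cells (1455 and 1307 UMIs) and at -1.22 in enteroendocrine-like cells (265 and 109 UMIs). *Cdca7* was at -0.15 in stem-like cells, at 2.60 in enterocyte-like cells, where it rested on 2 and 25 UMIs, and at 0.70 in enteroendocrine-like cells (49 and 76 UMIs). Of the 25 *Cdca7* UMIs, 21 were in the enterocyte-like cluster led by *Tmem237* and *S100g*, at 0.0443 per 10000. The control cluster of 187 cells with *Tmem237* among its leading genes was unnamed and not counted here, and held *Cdca7* at 0.125 (42 UMIs), so the ratio of 2.60 sets unlike cells side by side.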

How the results depend on the processing

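With 1 library in each group no replicate could be left out, and counting intervals hold no spread between cultures. No paired analysis was possible because each group has 1 library. For the 8 genes summed over all cells (-0.78), the ratio was -0.96 with mitochondrial, ribosomal, *Gm42418* and *AY036118* counts out of the total, -0.98 under TMM and under the median of ratios, -0.51 as the mean over cells, -0.58 thinned to 500 UMIs and -0.71 thinned to 5000. In stem-like cells (-0.16) the same settings gave -0.28, -0.35, -0.39, -0.20, -0.26 and -0.13. Resolution 0.5 gave -0.22, 30 principal components -0.20, keeping the 8 genes in the clustering -0.19, clustering the libraries together -0.074, asking for 3 markers -0.22 and keeping clusters of median 2000 UMIs or more -0.12. The sign turned with 10 principal components (0.19), no regression (0.049), markers from 2 times the reference level (0.38) and Lgr5-high cells of at least 2000 (0.10) or 10000 UMIs (0.10). *Olfm4* turned under these 5 (0.32, 0.18, 0.74, 0.19 and 0.18) and with the libraries clustered together (0.029). *Cdca7* turned with 10 principal components (0.18), no regression (0.072), joint clustering (0.11) and the 2-times rule (0.26). *Slc12a2* turned under TMM (-0.067) and the median of ratios (-0.11), and *Smoc2* over all cells as the mean over cells (0.25) and thinned to 500 UMIs (0.29). The cause was not tested. In stem-like cells *Aqp4* (-2.26 to -1.28), *Clca3b* (-1.32 to -0.49), *Pcdh8* (-2.63 to -0.35) and *Rgmb* (-0.79 to -0.11) were negative and *Smoc2* (0.16 to 0.62) positive in all 21 alternatives. Of the 8 genes, 4 were lower over all cells when called from 2-fold; in stem-like cells 6 were lower, against 3 when called from 2-fold, 3 thinned to 500 UMIs and 2 under the 2-times rule. Genes at least 2-fold lower over all cells numbered 348, 523 from 50 UMIs and 1804 with no minimum. The 3-marker rule, the median-depth limit and the 10000-UMI limit on Lgr5-high cells were chosen after seeing the data.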

Other observations

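*Bex1*, a small adaptor protein gene, was among the 3 genes most like *Smoc2* over the 14 clusters of the library labelled WT (r = 0.96), and over the 13 clusters of the library labelled KO r was 0.38. It had 18114 UMIs in the library labelled WT and 68 in the library labelled KO, a log2 ratio of -7.38 over all cells. *Myb*, a transcription factor of proliferating crypt cells and among the 3 genes most like *Clca3b*, had 1439 and 308 UMIs, a log2 ratio of -1.55.

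A control cluster of 187 cells, unnamed and led by *Nupr1* and *Tmem237*, held *Aqp4* at 0.947 per 10000 (0.845 to 1.06) and *Slc12a2* at 4.43, with *Olfm4* at 0.908, *Smoc2* at 0.535 and *Pcdh8* at 0.0119.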
